A study of Mus musculus with 13 samples.

Results

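The 10 genes described here write, hold or remove repressive chromatin marks, and their RNA was measured in mouse embryonic fibroblasts (MEFs), connective tissue cells grown from mouse embryos. They were listed by symbol for what they are known to do, with earlier results of these data known, and no measured value enters the rule. They are the core of Polycomb repressive complex 2 (PRC2), which is Ezh1, Ezh2, Eed and Suz12, the DNA methylation writers and their recruiter (Dnmt1, Uhrf1, Dnmt3a and Dnmt3b) and the demethylating oxygenases Tet2 and Tet3. All 10 were among the 57010 genes of each RNA-Seq file, and all 10 were among the 15034 genes that passed the filter on low counts and were tested.

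Wild-type MEFs from the 3 mice numbered 4, 5 and 6 were compared in 4 groups, so each group held 3 samples. Control MEFs were untreated. Senescent cells (SnCs) had been given the DNA-damaging drug etoposide at 2 µM for 24 h and were then cultured for 5 days. The remaining groups were SnCs treated for 12 h with Fucoidan-FV, a seaweed polysaccharide, at 100 or 300 µg/mL. The control of mouse 5 had been sequenced as 2 libraries, which were summed into 1 sample, making 13 libraries of 22782536 to 31278750 counts. RNA was measured in bulk cultures, so fewer cells that express a gene and less RNA per cell cannot be told apart. The values are of RNA, and histone and DNA methylation were not analysed here.

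The 10 fibroblast marker genes summed to between 31846 and 53789 CPM (read counts scaled to the sample's normalised library size) in every sample. The sum came mostly from Fn1 and Vim, and single markers were not level. Dcn had means of 1.06 CPM in controls, 16.2 in SnCs and 81.6 and 75.7 at 100 and 300 µg/mL. By the thresholds given below, 2 of 10 were called higher in SnCs against controls (4.47% of all genes). Against SnCs it was 3 at 100 µg/mL (1.1%) and 1 at 300 µg/mL (0.752%), and none was called lower. Macrophage, endothelial and epithelial markers were low. The 7 macrophage markers summed to 0.56 to 4.89 CPM in controls and 2.94 to 16.9 CPM in SnCs. The 5 endothelial markers reached at most 3.7 CPM and the 6 epithelial markers at most 2.04 CPM. The 6 skeletal muscle markers summed to 21.9 to 267 CPM, mostly from the filament gene Des, while the defining factors Myod1 and Myog had at most 1 count in any sample. Macrophage markers were higher in all 7 tested genes in SnCs but none passed the test there. Against controls 1 of the 7, Lyz2, was called higher at both doses of Fucoidan-FV, where 10.3% and 9.87% of all genes were. It is named after its values were seen. Lyz2 passed the filter on low counts through samples where it is high, so its means are given without a test. They were 0.397 CPM in controls, 1.80 in SnCs and 4.34 and 3.66 at the lower and higher dose. The part of these markers in the results was not tested. The 5 neural markers summed to 31.9 to 91.1 CPM, mostly from Tubb3. Map2, which codes for a microtubule-associated protein, was the 1 of 2 tested that was called at each dose against SnCs. It was higher by 3.04 and 3.23 on the log2 scale and is named after its values were seen. Over all genes 1.1% and 0.752% were called higher there. Another measured difference between libraries touches the genes here unevenly. Over genes with more than 95% of their exonic bases in a single annotated transcript, the median log2 deviation of a library from the mean ranged from -0.76 to 0.72, against -0.20 to 0.16 over genes with less than 50%. The share was 68.6% for Tet3 and 53.2% for Ezh2, and lay between 10.5% (Suz12) and 46.7% (Eed) for the rest.

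PRC2 places methyl groups on lysine 27 of histone H3, a mark that keeps developmental genes silent. Ezh1 and Ezh2 are its alternative catalytic subunits, with Ezh2 known as the form of dividing cells and Ezh1 as the form that persists in resting cells, while Eed and Suz12 are the shared scaffold without which neither works. DNA methylation has its own division of labour. Dnmt1 copies the methylation pattern onto the new strand during replication, guided by Uhrf1, which binds hemimethylated DNA. Dnmt3a and Dnmt3b place methylation at new sites, and the Tet enzymes oxidise methylcytosine as a step towards its removal. In fibroblasts PRC2 is known for silencing Cdkn2a, the locus of the senescence regulators p16 and p19.

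Genes that are switched on as cells enter S phase often carry binding sequences of E2F factors near their start. The stretches shown here are those that hold an E2F-type sequence in the RefSeq promoter windows of the 10 genes (250 bases before to 50 after the start, 300 bases in all), with the matched letters in capitals. The letters searched on both strands were TTTCCCGC, TTTCGCGC, TTTGCCGC and TTTGGCGC. Each stretch is written 5′ to 3′ on the gene's strand and was placed on GRCm39, the build of the files, by an exact match.
Ezh2, chr6:47571943-47571972, minus strand: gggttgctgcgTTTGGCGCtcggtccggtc
Suz12, chr11:79883702-79883731, plus strand: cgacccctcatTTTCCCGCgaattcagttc
Dnmt1, chr9:20864120-20864149, minus strand: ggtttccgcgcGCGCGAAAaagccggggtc
Dnmt1, chr9:20863870-20863897, minus strand: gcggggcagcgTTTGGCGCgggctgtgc
Uhrf1, chr17:56611117-56611146, plus strand: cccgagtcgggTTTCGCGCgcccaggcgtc
The Suz12 stretch lies upstream of every annotated transcript of the gene, 183 bases before the start of its canonical transcript in GENCODE M39. The Ezh2, Dnmt1 and Uhrf1 stretches lie in noncoding parts of annotated exons, since RefSeq also lists starts inside the longer transcripts. No E2F letters were found in the RefSeq windows of Ezh1, Eed, Dnmt3a, Dnmt3b, Tet2 or Tet3. A match in at least 1 window was present for 2.6% of the 27025 genes listed there. That share is not matched for CG, which all the E2F letters contain. The median window held 7 CG, and the matched windows held 31 (Ezh2), 41 (Suz12), 33 (Dnmt1) and 33 (Uhrf1). Members without a match also had windows rich in CG, up to 57 in Tet2. With windows of the same length around the canonical GENCODE starts, 2.82% of 21770 protein-coding genes had a match and Suz12 was the single member with one. The RefSeq windows were also searched for CCAAT, which 6 of the 10 genes had (Ezh2, Eed, Suz12, Dnmt1, Uhrf1 and Tet3) beside 41.1% of all genes, and for TTTGAA, the core of the cell cycle element CHR, which 4 had (Eed, Suz12, Dnmt1 and Dnmt3b) beside 20.2%. Each of these searches, that for E2F letters included, matched Suz12, which did not pass the test of SnCs against controls given below. The E2F stretches were picked for display with the members' values known, and whether the letters bear on the levels was not tested. A match is a description of these letters and not a measured binding site.

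The first comparison asked how the 10 genes differed between SnCs and untreated MEFs. Uhrf1, Dnmt1 and Ezh2, which work in dividing cells, were lower in SnCs by 19.9-fold, 6.78-fold and 4.35-fold, and Ezh1 was 2.09-fold higher. These 4 were differentially expressed genes (DEGs), defined by an adjusted p below 0.05 in edgeR's quasi-likelihood test and a log2 fold change beyond 1 in either direction. Over all tested genes 4.47% were DEGs higher in SnCs and 3.95% were DEGs lower, so 1 and 3 of 10 members stand against those shares. The median log2 difference of the members was -0.79, beside 0.07 over all genes.

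**Figure D1:**
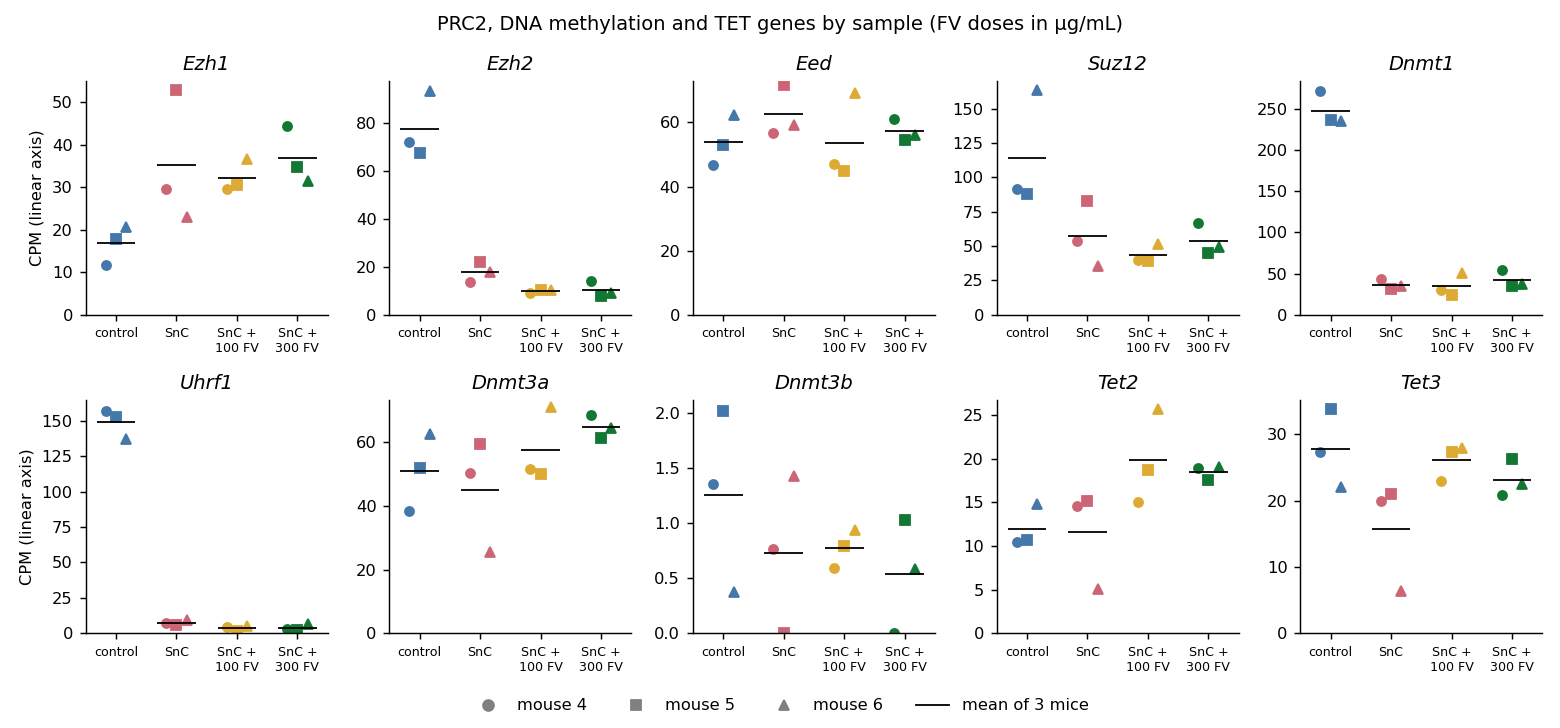
CPM (linear axis from 0) of each of the 10 genes in every sample, with 1 point per mouse and the group mean as a line (SnC, senescent cells, and FV, Fucoidan-FV at 100 or 300 µg/mL). Uhrf1, Dnmt1 and Ezh2 in all 9 senescent samples, treated or not, lie below every control, while Eed overlaps across all groups.

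Ezh2 (ENSMUSG00000029687, chr6:47507073-47572331, minus strand, GRCm39) stood at 71.9, 67.3 and 93.0 CPM in the controls of mice 4, 5 and 6 and at 13.6, 21.9 and 17.9 CPM in their SnCs. Every SnC sample was below every control. The log2 difference was -2.12 ± 0.27 (standard error, SE, edgeR adjusted p = 0.000333).

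Ezh1 (ENSMUSG00000006920, chr11:101081934-101117315, minus strand) moved the other way, from 11.8, 17.9 and 20.7 CPM in controls to 29.6, 52.9 and 23.1 CPM in SnCs. In CPM the groups did not overlap, and the SnCs of mouse 5 were far above those of the other mice. In TPM (transcript abundance scaled for gene length and library size) the groups overlapped. The SnCs of mouse 6 had 7.09 TPM, below the controls of mice 5 and 6 at 7.48 and 9.96 TPM. The log2 difference was 1.07 ± 0.31 (SE, edgeR adjusted p = 0.0431). This call sat close to the threshold. With the mouse number as a block in the fit the adjusted p was 0.0722 and the call was lost, and without the SnCs of mouse 5 the difference was 0.66. Over 23 alternative settings the adjusted p was 0.00881 to 0.171 and 14 of them lost the call, among them leaving out any single sample other than the control or the SnCs of mouse 6. A share of 9.59% of the exonic bases of Ezh1 is also covered by Cntnap1 and Gm72062 on the other strand, as are 9.21% of those of Eed and 9.06% of those of Tet3 by other genes, and whether counting used the strand is not given in the sources used here.

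With the opposite directions of the catalytic subunits known, their ratio was taken within each sample from TPM. This unit corrects for gene length and so allows levels of different genes to be compared. Ezh2 TPM exceeded Ezh1 TPM 8.99-fold, 4.74-fold and 5.92-fold in the controls of mice 4, 5 and 6. In SnCs the ratio was 0.991, 0.540 and 1.18. The mean ratio was 6.55 ± 2.19 (SD, n = 3) in controls and 0.904 ± 0.330 (SD, n = 3) in SnCs, with no overlap. From the means of the log2 ratios it was 7.36-fold lower in SnCs. This ratio restates the differences of Ezh2 and Ezh1 given here, so it is a description and no test of it is given.

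**Figure D2:**
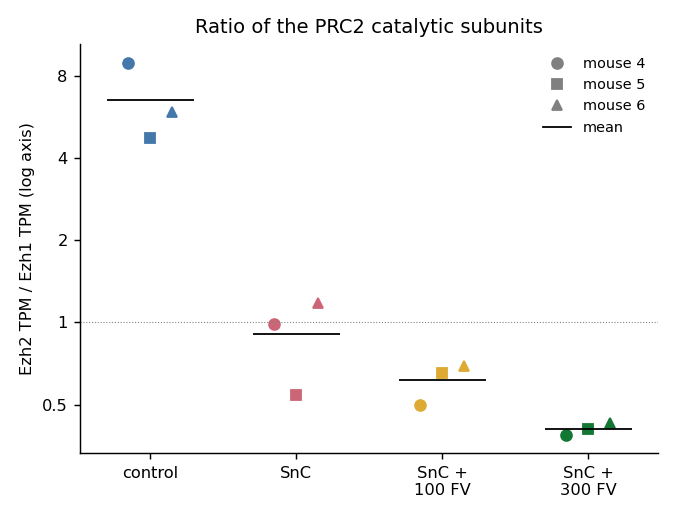
Ratio of Ezh2 TPM to Ezh1 TPM in every sample (log axis, 1 point per mouse, line at the group mean, FV doses in µg/mL). The controls lie between 4.74 and 8.99 and the SnCs between 0.540 and 1.18, and with 300 µg/mL Fucoidan-FV the samples lie between 0.387 and 0.428.

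Neither scaffold subunit was a DEG in SnCs. Eed (ENSMUSG00000030619, chr7:89603862-89630217, minus strand), the subunit that reads the existing mark, had 46.8, 52.9 and 62.3 CPM in controls and 56.7, 71.6 and 59.3 CPM in SnCs. The groups overlapped, and the log2 difference of 0.21 ± 0.21 (SE) was no larger than its error (edgeR adjusted p = 0.596). Suz12 (ENSMUSG00000017548, chr11:79883891-79925421, plus strand), which holds the complex together, had 91.6, 87.6 and 164 CPM in controls and 54.0, 83.2 and 35.3 CPM in SnCs. In CPM every SnC sample was below every control, but mouse 5 by little. In TPM the SnCs of mouse 5 (43.4) lay above the controls of mice 4 and 5 (37.8 and 30.3). Its log2 difference of -0.99 ± 0.32 (SE, edgeR adjusted p = 0.0620) missed both thresholds narrowly, and without the SnCs of mouse 5 it was -1.34 and passed both.

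Dnmt1 (ENSMUSG00000004099, chr9:20817945-20871184, minus strand) was measured at 272, 236 and 235 CPM in controls of mice 4, 5 and 6 and at 43.3, 31.3 and 34.9 CPM in SnCs. Its partner Uhrf1 (ENSMUSG00000001228, chr17:56610275-56630489, plus strand) was at 157, 153 and 137 CPM in controls and 7.0, 6.21 and 9.21 CPM in SnCs. For both genes the gap between the groups was many times the spread within them. The log2 differences were -2.76 ± 0.28 for Dnmt1 (SE, edgeR adjusted p = 6.8e-05) and -4.31 ± 0.48 for Uhrf1 (SE, edgeR adjusted p = 0.000131).

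The enzymes for new methylation gave no DEG. Dnmt3a (ENSMUSG00000020661, chr12:3856007-3964443, plus strand) had 38.6, 52.1 and 62.6 CPM in controls and 50.4, 59.4 and 25.6 CPM in SnCs, a log2 difference of -0.18 ± 0.29 (SE, edgeR adjusted p = 0.772). Dnmt3b (ENSMUSG00000027478, chr2:153490861-153529650, plus strand) was close to the detection limit, at 1.36, 2.02 and 0.376 CPM in controls and 0.767, 0 and 1.43 CPM in SnCs. The 0 in the SnCs of mouse 5 allows up to 0.129 CPM when 3 counts are taken as the limit, which covers counting error only. Over the 12 samples Dnmt3b had 0 to 103 counts, and at this depth a difference of its size (log2 -0.77 ± 1.3, SE) was not detectable.

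Tet2 (ENSMUSG00000040943, chr3:133169436-133250900, minus strand) had 10.4, 10.7 and 14.8 CPM in controls and 14.6, 15.2 and 5.03 CPM in SnCs. Its log2 difference was -0.04 ± 0.37 (SE, edgeR adjusted p = 0.964), with the SnCs of mouse 6 below all other samples and those of mice 4 and 5 at or near the top of the control range. Tet3 (ENSMUSG00000034832, chr6:83339355-83436066, minus strand) had 27.3, 33.9 and 22.0 CPM in controls and 20.0, 21.0 and 6.39 CPM in SnCs. The groups of Tet3 did not overlap in CPM, but its log2 difference of -0.81 ± 0.36 (SE, edgeR adjusted p = 0.179) did not pass the test. In TPM the SnCs of mice 4 and 5 (3.71 and 4.7) lay above the control of mouse 6 (3.51). The SnCs of mouse 6 were also the lowest of all 12 samples for Dnmt3a, Suz12 and Tet3.

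Per length, the order of the genes differed between control MEFs and SnCs. In controls Dnmt1 led with 58.5 ± 8.0 TPM (SD, n = 3), followed by Uhrf1 at 56.5 ± 5.7, Ezh2 at 46.6 ± 11.8, Eed at 45.2 ± 4.7 and Suz12 at 43.4 ± 16.7 TPM, and no neighbours in that order were separated by more than their range. A gap followed to Dnmt3a at 12.5 ± 3.8 TPM, Ezh1 at 7.49 ± 2.46, Tet3 at 4.60 ± 1.00, Tet2 at 2.01 ± 0.44 and Dnmt3b at 0.41 ± 0.26 TPM. In SnCs Eed led alone at 53.2 ± 8.9 TPM (SD, n = 3). Suz12 (26.5 ± 17.0 TPM), Ezh1 (14.6 ± 9.6), Ezh2 (11.1 ± 2.7), Dnmt1 (9.21 ± 2.52) and Dnmt3a (8.53 ± 4.18) followed with overlapping ranges. Uhrf1, next to the top in controls, stood at 3.02 ± 0.47 TPM in SnCs, between Tet3 and Tet2. TPM rests on an effective gene length estimated in each library, and for Dnmt3a that length was 3876 and 6779 bases in the 2 control libraries of mouse 5. Those libraries also differed in level, with Dnmt1 at 68.0 and 39 TPM, Uhrf1 at 70.2 and 41.4 TPM and Ezh2 at 41.4 and 29.5 TPM, each above all SnC samples, and the calls of these 3 genes held with either library alone.

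The next comparison asked whether Fucoidan-FV changed these genes in SnCs. At 100 µg/mL none of the 10 was a DEG, with 1.1% of all genes DEGs higher and 1.6% DEGs lower than in SnCs. At 300 µg/mL none was a DEG either, beside 0.752% higher and 0.885% lower over all genes. At an unadjusted p under 0.05 there were 2 of 10 members at the lower dose (Ezh2 and Uhrf1), where 19.8% of all genes were, and 1 of 10 at the higher (Ezh2), where 15.3% were. Neither count stands out from its background. DESeq2 also called none at either dose. Both comparisons use the same 3 SnC samples, so their values are given side by side and are not independent.

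**Figure D3:**
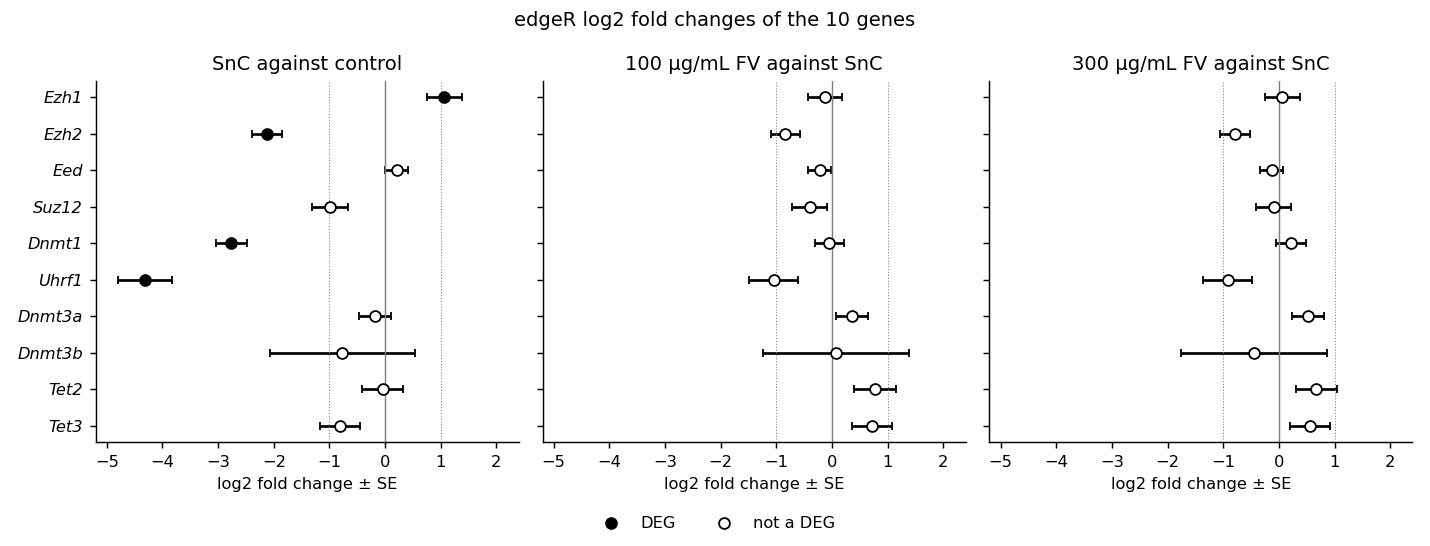
Log2 fold change ± SE of the 10 genes in SnCs against controls and in each Fucoidan-FV dose against SnCs (edgeR, 3 samples per group, filled points are DEGs, dotted lines mark 1 in either direction). The 4 filled points are Ezh1, Ezh2, Dnmt1 and Uhrf1 in SnCs against controls, and both Fucoidan-FV panels have open points only.

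Ezh2 stood at 9.17, 10.2 and 10.5 CPM with 100 µg/mL Fucoidan-FV (mice 4, 5 and 6) and at 13.9, 7.93 and 9.04 CPM with 300 µg/mL, against 13.6 to 21.9 CPM in SnCs. In CPM all 3 samples at the lower dose were below every SnC sample, and at the higher dose mouse 4 overlapped with them. In TPM the lower dose overlapped with the SnCs too. It had 7.53, 10.3 and 10.3 TPM against 11.2, 13.7 and 8.38 TPM in SnCs of mice 4, 5 and 6. The log2 differences were -0.84 ± 0.27 (SE, edgeR adjusted p = 0.0965) and -0.79 ± 0.27 (SE, edgeR adjusted p = 0.157).

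Uhrf1 was at 4.38, 1.36 and 5.09 CPM with the lower dose and 3.22, 2.10 and 6.55 CPM with the higher, lower than the SnCs of the same mouse in 3 of 3 mice at both. The log2 differences were -1.05 ± 0.44 (SE, edgeR adjusted p = 0.206) and -0.92 ± 0.44 (SE, edgeR adjusted p = 0.342). Neither passed the test. Its catalytic partner Dnmt1 stood at 30.4, 24.6 and 51.0 CPM with the lower dose and at 54.7, 35.0 and 37.95 CPM with the higher. These ranges overlapped with the SnCs, and the log2 differences of -0.05 ± 0.26 and 0.22 ± 0.26 (SE) were within their error. In TPM the Dnmt1 mean at the lower dose was 11.7, above 9.21 in SnCs.

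Tet2 and Tet3 were above the SnCs of the same mouse in 3 of 3 mice at both doses, without passing the test. Tet2 had 15.1, 18.7 and 25.7 CPM with the lower dose and 19.0, 17.6 and 19.0 CPM with the higher, log2 differences of 0.77 ± 0.37 (SE, edgeR adjusted p = 0.271) and 0.67 ± 0.37 (SE, edgeR adjusted p = 0.431). Tet3 had 22.9, 27.3 and 28.0 CPM and 20.9, 26.2 and 22.4 CPM, log2 differences of 0.72 ± 0.36 (SE, edgeR adjusted p = 0.293) and 0.55 ± 0.36 (SE, edgeR adjusted p = 0.524). Both genes were lowest in the SnCs of mouse 6. Without that sample the log2 differences were 0.54 and 0.36 for Tet2 and 0.49 and 0.23 for Tet3 at the lower and higher dose.

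Dnmt3a was at 51.8, 49.98 and 71.2 CPM with the lower dose and 68.6, 61.5 and 64.6 CPM with the higher. All 3 samples at 300 µg/mL were above every SnC sample, and the log2 differences were 0.35 ± 0.29 and 0.52 ± 0.29 (SE, edgeR adjusted p = 0.544 and 0.427). Eed, Ezh1 and Suz12 overlapped with the SnCs at both doses. Their log2 differences were -0.22 ± 0.21, -0.13 ± 0.31 and -0.40 ± 0.32 (SE) at the lower dose and -0.13 ± 0.21, 0.07 ± 0.31 and -0.09 ± 0.32 (SE) at the higher. The direction for Eed depended on the unit. Its mean TPM was 64.2 at the lower and 58.4 at the higher dose, above 53.2 in SnCs. Ezh1 at the lower dose had a mean of 15.3 TPM, above 14.6 in SnCs. Dnmt3b had 0.595, 0.795 and 0.934 CPM with the lower dose and 0, 1.03 and 0.581 CPM with the higher, where the 0 allows up to 0.116 CPM.

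The ratio of Ezh2 to Ezh1 was 0.497, 0.652 and 0.694 with 100 µg/mL and 0.387, 0.406 and 0.428 with 300 µg/mL Fucoidan-FV. The means were 0.614 ± 0.104 and 0.407 ± 0.020 (SD, n = 3). In TPM the samples of the lower dose overlapped with the SnCs, and those of the higher lay below all of them. With CPM in place of TPM both doses lay below all SnC samples. The doses themselves did not overlap in TPM, but with CPM in place of TPM they did. An exact permutation test of 3 samples against 3 cannot give a p below 0.1, so no test of the ratio is given here either.

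Between the doses no member was a DEG in edgeR or DESeq2, and none reached an unadjusted p of 0.05 in edgeR, which 0.625% of all genes did. Of all genes 0% were DEGs higher at 300 than at 100 µg/mL and 0.00665% were DEGs lower. Log2 differences of the members ranged from -0.52 ± 1.32 (SE) for Dnmt3b to 0.31 ± 0.32 (SE) for Suz12.

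Against untreated controls, the treated SnCs were lower in the same 3 members as untreated SnCs and also in Suz12. With 100 µg/mL 4 of 10 members were DEGs lower than in controls and none higher, where 9.37% and 10.3% of all genes were. With 300 µg/mL 4 were lower and 1 higher, where 8.11% and 9.87% of all genes were. Uhrf1 was 41.1-fold and 37.7-fold lower, Ezh2 7.77-fold and 7.52-fold lower and Dnmt1 7.0-fold and 5.82-fold lower at the lower and higher dose.

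Suz12, which missed the call in untreated SnCs, was a DEG here. It stood at 39.6, 39.2 and 51.8 CPM with 100 µg/mL and at 67.0, 45.3 and 49.6 CPM with 300 µg/mL, below the lowest control of 87.6 CPM. The log2 differences to controls were -1.39 ± 0.32 (SE, edgeR adjusted p = 0.00622) and -1.08 ± 0.32 (SE, edgeR adjusted p = 0.0249). With the mouse number as a block the adjusted p at the higher dose was 0.0507 and the call was lost, and without the control of mouse 6 the difference was -0.88 at the lower and -0.67 at the higher dose, neither a DEG. Leaving out the treated sample of mouse 5 (-0.97) or of mouse 6 (-1.03) also ended the call at the higher dose.

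Ezh1 had 29.5, 30.5 and 36.6 CPM with 100 µg/mL and 44.4, 34.7 and 31.4 CPM with 300 µg/mL, all above the highest control of 20.7 CPM. It was a DEG at the higher dose (log2 1.13 ± 0.32, SE, edgeR adjusted p = 0.0187) and fell short of the fold threshold at the lower (0.94 ± 0.31, SE, edgeR adjusted p = 0.0414). Without the control of mouse 4 or the treated sample of mouse 4, the difference at the higher dose was 0.97 and no DEG. These comparisons share the control samples with that of SnCs against controls.

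Genes that act with the 10 were then read from lists drawn up with earlier results of these data known, so they describe and do not test the pattern. Maintenance methylation partners had 4 of 8 members as DEGs lower in SnCs and none higher, where 3.95% and 4.47% of all genes were. The list median was -1.12 beside 0.07 over all genes. These were Cdca7 (log2 -3.81 ± 0.53, SE), Hells (-3.47 ± 0.52), Pcna (-1.71 ± 0.25) and Cdca7l. Hells is the nucleosome remodeller that Cdca7 recruits, and Pcna is the sliding clamp of the replication fork. Cdca7l was near the filter on low counts outside the controls, so it is counted here but its log2 difference is not given. Its means were 8.83 CPM in controls, 0.502 in SnCs and 0.497 and 0.173 at the lower and higher dose. Hells stood at 25.1, 14.96 and 23.9 CPM in controls of mice 4, 5 and 6 and at 3.07, 1.51 and 1.16 CPM in SnCs. Uhrf2, the paralogue of Uhrf1, had 60.1, 74.9 and 94.3 CPM in controls and 70.0, 82.7 and 49.5 CPM in SnCs, with a log2 difference of -0.18 ± 0.23 (SE, edgeR adjusted p = 0.690). No partner was a DEG at either Fucoidan-FV dose against SnCs. Over all genes 1.1% were DEGs higher and 1.6% lower at 100 µg/mL, and 0.752% and 0.885% at 300 µg/mL.

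**Figure D4:**
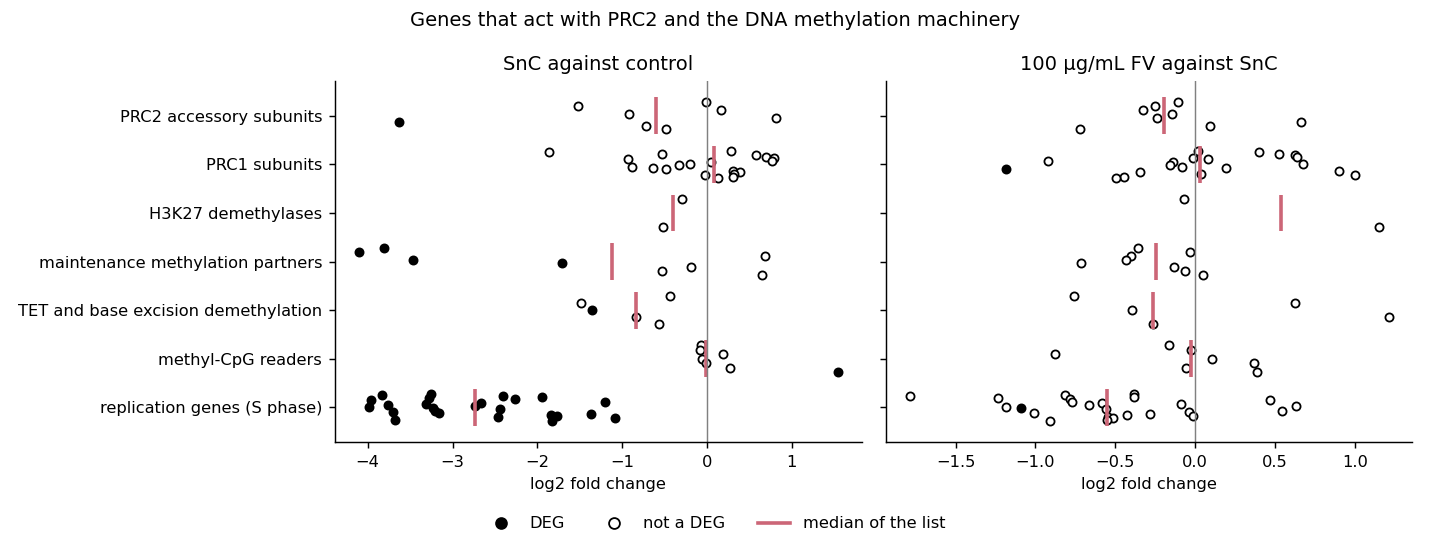
Log2 fold change of each tested gene in 7 lists of chromatin and replication genes, in SnCs against controls and in 100 µg/mL Fucoidan-FV against SnCs (filled points are DEGs, red lines list medians). All 25 replication genes and 4 of 8 maintenance partners are DEGs below 0 in the left panel, as are 3.95% of all genes. PRC1 subunits lie on either side of 0 with no DEG there. Cdca7l, Gins1 and Phf19, which are DEGs in the left panel, were near the filter on low counts outside the controls.

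Replication genes of S phase, the phase in which Dnmt1 and Uhrf1 act, were DEGs lower in SnCs in 25 of 25 cases, beside 3.95% of all genes. The median log2 difference was -2.74, led by Mcm5 (-3.99 ± 0.48, SE), Cdc6 (-3.83 ± 0.46) and Mcm3 (-3.76 ± 0.42) when Gins1 is left aside. Gins1 was near the filter on low counts outside the controls, so it is counted here but its log2 difference is not given. Its means were 3.73 CPM in controls, 0.232 in SnCs and 0.328 and 0.157 at the lower and higher dose. Against SnCs 1 of 25 was a DEG at 100 µg/mL, the helicase subunit Mcm6 (log2 -1.09 ± 0.26, SE, edgeR adjusted p = 0.0395), named here after its value was seen, and none at 300 µg/mL. Of all genes 1.6% and 0.885% were DEGs lower there. The list medians were -0.55 and -0.56, and 22 and 25 of the 25 had a log2 difference below 0. The replication genes moved with Ezh2, Dnmt1 and Uhrf1 between SnCs and controls, and their part in the difference of those 3 was not tested.

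Of 8 tested PRC2 accessory subunits Phf19 alone was a DEG in SnCs, where it was lower, as were 3.95% of all genes. It went from 7.95, 6.42 and 5.73 CPM in controls of mice 4, 5 and 6 to 0.224, 0.647 and 0.748 CPM in their SnCs. Outside the controls Phf19 was near the filter on low counts, so its log2 difference is not given. It had 7, 15 and 22 counts in SnCs of mice 4, 5 and 6 and 0, 14 and 0 at 300 µg/mL. Phf19 brings PRC2 to chromatin by binding methylated lysine 36 of histone H3. Jarid2, which helps to recruit the complex, had 14.7, 16.3 and 18.3 CPM in controls and 19.5, 22.3 and 13.6 CPM in SnCs (log2 0.17 ± 0.27, SE, edgeR adjusted p = 0.772). Among 20 subunits of Polycomb repressive complex 1 (PRC1), which ubiquitylates histone H2A, none was a DEG in SnCs and the median was 0.09, next to that of all genes. With 4.47% of all genes DEGs higher and 3.95% lower, none of 20 does not stand out. At 100 µg/mL Fucoidan-FV against SnCs the PRC1 subunit Phc2 was a DEG (log2 -1.18 ± 0.19, SE, edgeR adjusted p = 0.00719), and it is named after its value was seen. It was the 1 of 20, where 1.6% of all genes were DEGs lower. At 300 µg/mL its log2 difference was -0.98 ± 0.19 (SE, edgeR adjusted p = 0.0228), short of the fold threshold alone. Phc2 had 176, 170 and 284 CPM in the SnCs of mice 4, 5 and 6 and 89.3, 91.0 and 97.6 CPM at 100 µg/mL.

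The demethylases that remove the PRC2 mark, Kdm6a and Kdm6b, were not DEGs in SnCs, with log2 differences of -0.29 ± 0.44 and -0.51 ± 0.57 (SE). Kdm6b varied widely, from 7.05 to 29.7 CPM among controls and from 7.89 to 21.7 CPM among SnCs. In the list of TET and base excision genes, Tdg, the glycosylase that removes oxidised methylcytosine, was the 1 of 5 that was a DEG in SnCs (log2 -1.35 ± 0.19, SE, edgeR adjusted p = 0.000576). Of all genes 3.95% were DEGs lower. Tet1 was low throughout, between 0.883 and 10.5 CPM over the 12 samples, with a log2 difference of -0.83 ± 0.53 (SE, edgeR adjusted p = 0.363). Of 7 methyl-CpG readers Zbtb4 was higher in SnCs (log2 1.55 ± 0.32, SE, edgeR adjusted p = 0.00747) and the other 6 were not DEGs, where 4.47% of all genes were DEGs higher.

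Genes that these systems are known to hold silent were read last. Cdkn2a stood at 36.9, 53.7 and 45.1 CPM in controls of mice 4, 5 and 6 and at 203, 191 and 351 CPM in SnCs (log2 2.46 ± 0.25, SE, edgeR adjusted p = 7.24e-05). It was the 1 DEG among the 7 tested of 18 Polycomb-silenced genes listed, where 4.47% of all genes were DEGs higher, and the other 11 did not pass the filter on low counts. With Fucoidan-FV it was at 185, 205 and 145 CPM (100 µg/mL) and 203, 180 and 185 CPM (300 µg/mL). Its transcripts p16 and p19 cannot be told apart in gene-level counts. Of 12 germline genes that promoter methylation is known to silence, 4 passed the filter and none was a DEG in SnCs or at either dose against SnCs. Of all genes 4.47% were DEGs higher in SnCs, and 1.1% and 0.752% at the lower and higher dose against SnCs. Ddx4, a germ cell helicase named after its values were seen, passed the filter only through samples where it is high, so its counts are given without a test. It had 0, 1 and 0 counts in controls of mice 4, 5 and 6, 11, 0 and 11 in SnCs, 20, 20 and 53 at 100 µg/mL and 32, 27 and 12 at 300 µg/mL.

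Over the 12 samples some members varied together, given here as Pearson's r of log2 CPM without a test, since the points share their groups and libraries. Ezh2, Dnmt1 and Uhrf1 were paired at r of 0.92 to 0.95, and Suz12 joined them at 0.77 to 0.85. Ezh1 ran against Uhrf1 (-0.80), Dnmt1 (-0.76) and Ezh2 (-0.69). Dnmt3a and Tet2 formed another pair at 0.92. Eed was at 0.01 with Ezh2 and at 0.28 with Suz12, its partners in the complex.

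The genes outside the 10 whose log2 CPM was most like each member, among those with a mean of at least 1 CPM, were named over the same 12 samples. Uhrf1 was closest to Kif2c (0.995) and Dlgap5 (0.994), Dnmt1 to Racgap1 (0.988) and Mcm10 (0.987), and Ezh2 to Gart and Kpna2 (both 0.988). Suz12 was closest to Ddx5 (0.986) and Hnrnpu (0.985), and Ezh1 to Dcun1d3 (0.968) and Nacc2 (0.963). Dnmt3a was closest to Scyl2 (0.976) and Tecpr2 (0.974), Tet2 to Zfp518a (0.967) and Lysmd3 (0.966), and Tet3 to Wasf2 (0.976) and Snrnp200 (0.962). Eed had lower values with its closest genes, Rtn3 and Ap3m1 (both 0.934), as had Dnmt3b with Smarce1 (0.907) and Chst2 (0.893).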

How the data were processed

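RNA of 13 MEF libraries had been prepared with a stranded total RNA kit. According to the submitters' processing notes, FastQC 0.12.1, Trimmomatic, STAR 2.7.11b and RSEM 1.3.1 were used with GRCm39. The deposited files give RSEM expected counts and TPM per gene, both made by the authors. A series-wide table of the authors' was not used here.

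Expected counts were rounded, the 2 control libraries of mouse 5 were summed, and genes were kept by edgeR's filterByExpr (minimum count 10, minimum total 15). The 4 groups were fitted together by edgeR 4.0.16 (R 4.3.3; TMM, quasi-likelihood F test, Benjamini-Hochberg adjustment over 15034 genes). SE is the absolute log2 fold change divided by the square root of F. The fit was tested on simulated data. DESeq2 1.42.0 was run as an alternative, as were other filters, scalings, left-out samples and an offset for single-transcript sequence. The mouse numbers name the same animals in each group. Over 18 pairs of same-numbered samples, deviations from the group means correlated at -0.20 to 0.43 (median -0.01, 8 over 0.1). The members, gene lists and motifs were chosen with earlier results of these data known. The 10 members were named in every comparison, with list members that were DEGs in SnCs (up to 4 a list), 7 further genes and the 2 most alike genes of each member. E2F letters were searched in RefSeq windows (GRCm38.p6) and GENCODE M39 starts. The main fit did not pair the samples of the same animal. Its p-values rest on a spread estimated over the 12 samples of all 4 groups, which come from the same 3 animals.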

Additional observations from a re-analysis of the deposited data

How the results depend on the processing

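Over 23 alternative settings Ezh2, Dnmt1 and Uhrf1 remained DEGs lower than controls in SnCs and at both doses, and no member was a DEG at either dose against SnCs. The number of members called in SnCs against controls was 3 to 5. With the mouse as a replicate block it was 3 in place of 4, since Ezh1 was lost (log2 1.04), and at 300 µg/mL against controls 4 in place of 5, since Suz12 was lost (-1.07). The block changed no other call of a member. Suz12 in SnCs was a DEG in 7 of 23 settings, among them DESeq2, no filter on low counts and the offset for single-transcript sequence. Ezh1 at 100 µg/mL against controls was a DEG in 9 of 23, among them DESeq2 and leaving out any 1 SnC sample or the control of mouse 6. A fit with the offset and the replicate block together was chosen after seeing the data and called 4 members in SnCs.

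Small differences changed sign, and for these the cause was not tested. Dnmt1 at 100 µg/mL against SnCs was at 0.0323 with DESeq2 and with RLE factors, 0.0222 without a filter, 0.0371 with at least 10 counts in every sample, 0.0294 with only the 2 groups, 0.00818 with the offset and 0.0166 with the offset and block. In that comparison Ezh1 was at 0.00518 with the offset and 0.0408 with the offset and block, and Dnmt3b at -0.00425 with the block and -0.00838 with the offset and block. Tet2 in SnCs was at 0.0149 with library 5(1) alone as the control of mouse 5. The TPM means of Eed, Ezh1 and Dnmt1 at 100 µg/mL lay above those of SnCs, against negative log2 differences in the main fit. With 1 sample left out at a time, log2 differences at 100 µg/mL against SnCs were -0.23 to 0.42 (Ezh1), -0.44 to 0.0146 (Eed), -0.55 to 0.0899 (Suz12), -0.41 to 0.24 (Dnmt1) and -0.36 to 1.09 (Dnmt3b). At 300 µg/mL they were -0.11 to 0.52 (Ezh1), -0.18 to 0.0244 (Eed), -0.30 to 0.30 (Suz12), -0.00301 to 0.43 (Dnmt1) and -1.33 to 0.52 (Dnmt3b), and in SnCs against controls -0.41 to 0.11 (Dnmt3a) and -0.27 to 0.32 (Tet2). The log2 difference of the Ezh2 to Ezh1 ratio with CPM in place of TPM was -3.92 at 100 µg/mL against controls (-3.38 with TPM) and -0.177 between the doses (-0.58 with TPM).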
